A study of Mus musculus with 6 samples.

Results

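Carnosine, the dipeptide of beta-alanine and histidine, was given to one of the groups of mice, and the genes described here are those that carry it across membranes, make it, modify it, cleave it or use its building blocks. They are 10 of the 55487 genes in the deposited expression table, chosen by gene name: the peptide transporters Slc15a2, Slc15a4 and Slc15a3, carnosine synthase Carns1, carnosine N-methyltransferase Carnmt1, the dipeptidase Cndp2, the taurine and beta-alanine transporter Slc6a6, the transaminase Abat, and the histamine enzymes Hdc and Hnmt. RNA was measured by poly-A selected, stranded, paired-end sequencing in 3 libraries from carnosine-treated mice and 3 libraries from saline-treated mice. All mice were wild type and unirradiated, and the bulk RNA came from bone marrow cells sorted as long-term hematopoietic stem cells (LT-HSCs), that is Lineage-, Sca-1+, c-Kit+, Flk2- and CD34- cells. How much carnosine was given and for how long, and how old the mice were, of which sex and how many, is not given in the sources used here. Nothing in the labels states that replicate libraries were made from different mice, so p-values may measure technical spread only.

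As background, cells take up carnosine whole through proton-coupled peptide transporters at the surface, or they make it from beta-alanine and histidine with an ATP-dependent ligase. Methylation of its histidine ring gives anserine, and dipeptidases split carnosine back into beta-alanine and histidine. Histidine freed in this way can enter protein, be broken down, or be decarboxylated to histamine, which methylation inactivates. Carnosine is best known from skeletal muscle and brain, where it buffers protons and traps reactive carbonyls. In bone marrow, histamine synthesis is best known from basophils, mast cells and myeloid-biased progenitors.

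The carnosine libraries held 12108727, 10442112 and 13251332 counts, and the saline libraries held 10386171, 10304539 and 13210166 counts. At these depths a count of 0 allows up to 3 counts, or 0.226 to 0.291 CPM (counts scaled to library size), counting error only. Carnosine and saline libraries separated on the first principal component, which held 49.1% of the variance. All 12 listed LT-HSC markers passed the filter on low counts, with summed levels of 1197 to 1344 CPM in carnosine libraries and 1206 to 1237 CPM in saline libraries. Transcripts of the surface proteins that the gate excludes were abundant: Flt3, which encodes Flk2, averaged 774 CPM in carnosine libraries and 818 CPM in saline libraries, and Cd34 averaged 861 CPM in carnosine libraries and 857 CPM in saline libraries. Summed levels of 10 progenitor markers, which include these, were 2612 to 2661 CPM in carnosine libraries and 3035 to 3060 CPM in saline libraries. Erythroid markers summed to 141 to 149 CPM in carnosine libraries and 51.0 to 62.0 CPM in saline libraries, and their part in the results below was not tested. Since these are bulk samples, fewer cells of a type and less RNA per cell cannot be told apart.

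Libraries of cells sorted as LT-HSCs held transcripts for surface uptake, synthesis, methylation and cleavage of carnosine. Bulk RNA cannot place these steps in the same cells. Of the 10 genes, 7 reached 1 FPKM (fragment counts scaled to transcript length and library size) in every library: Slc6a6, Cndp2, Carnmt1, Carns1, Hnmt, Slc15a4 and Slc15a2. The highest was Slc6a6, at a mean of 16.4 ± 0.0706 FPKM in carnosine libraries and 13.3 ± 0.485 FPKM in saline libraries (SD, n = 3 each). It was followed by Cndp2, at 8.49 ± 0.210 FPKM in carnosine libraries and 7.61 ± 0.221 FPKM in saline libraries.

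Below these lay the enzymes that methylate and make carnosine, Carnmt1 and Carns1. In FPKM their order was not the same in both groups. Carnmt1 stood at 4.76 ± 0.287 FPKM and Carns1 at 3.32 ± 0.439 FPKM in carnosine libraries, without overlap between libraries. In saline libraries Carns1 stood at 4.48 ± 0.382 FPKM and Carnmt1 at 3.80 ± 0.373 FPKM, with overlapping ranges. Slc15a4 and Slc15a2 overlapped each other in both groups, at 2.45 and 2.39 FPKM in carnosine libraries and 3.12 and 3.01 FPKM in saline libraries. Hnmt averaged 2.47 FPKM in carnosine libraries and 2.09 FPKM in saline libraries. The 3 genes below 1 FPKM were Slc15a3, Hdc and Abat, at 0.497, 0.323 and 0.164 FPKM in carnosine libraries and 0.660, 0.592 and 0.212 FPKM in saline libraries.

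Set among the 15298 genes kept for testing, 8 of the 10 lay below the median level. By mean FPKM over the 6 libraries, 79.1% of tested genes lay below Slc6a6 and 64.2% below Cndp2. The corresponding share was 46.8% for Carnmt1, 44.4% for Carns1, 36.5% for Slc15a4, 35.7% for Slc15a2 and 31.8% for Hnmt. It was 11.1% for Slc15a3, 8.90% for Hdc and 2.54% for Abat.

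The order between genes depended on the transcript length behind the values. In all 10 genes the length implied by the deposited counts and FPKM equalled the sum of all distinct annotated exons in GENCODE M21, in which overlapping exons of different transcripts are each counted. The same held, within 0.5%, for 97.7% of the 14532 genes with enough counts to compare. That length was 1.23 times the longest principal transcript for Carnmt1 and 3.36 times for Slc15a4, so the deposited FPKM lower the level of one gene more than that of another. Recomputed per kilobase of the principal transcript, Slc6a6 stood at 28.7 ± 0.122 in carnosine libraries and 23.3 ± 0.848 in saline libraries, and Cndp2 at 25.4 ± 0.626 in carnosine libraries and 22.8 ± 0.659 in saline libraries. On this scale Slc6a6 and Cndp2 overlapped in saline libraries, and Slc15a4 (8.23 ± 1.60 in carnosine libraries, 10.5 ± 0.942 in saline libraries) and Carns1 (7.53 ± 0.995 in carnosine libraries, 10.2 ± 0.863 in saline libraries) came before Carnmt1 (5.85 ± 0.353 in carnosine libraries, 4.67 ± 0.458 in saline libraries). Carns1 thus lay above Carnmt1 in both groups without overlap between libraries, and the change of order seen in FPKM was absent. On the same scale Slc15a3, at 1.54 in carnosine libraries and 2.05 in saline libraries, also passed 1 in every library, which made 8 genes. A change of length leaves the comparison of the groups within a gene as it is.

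**Figure D1:**
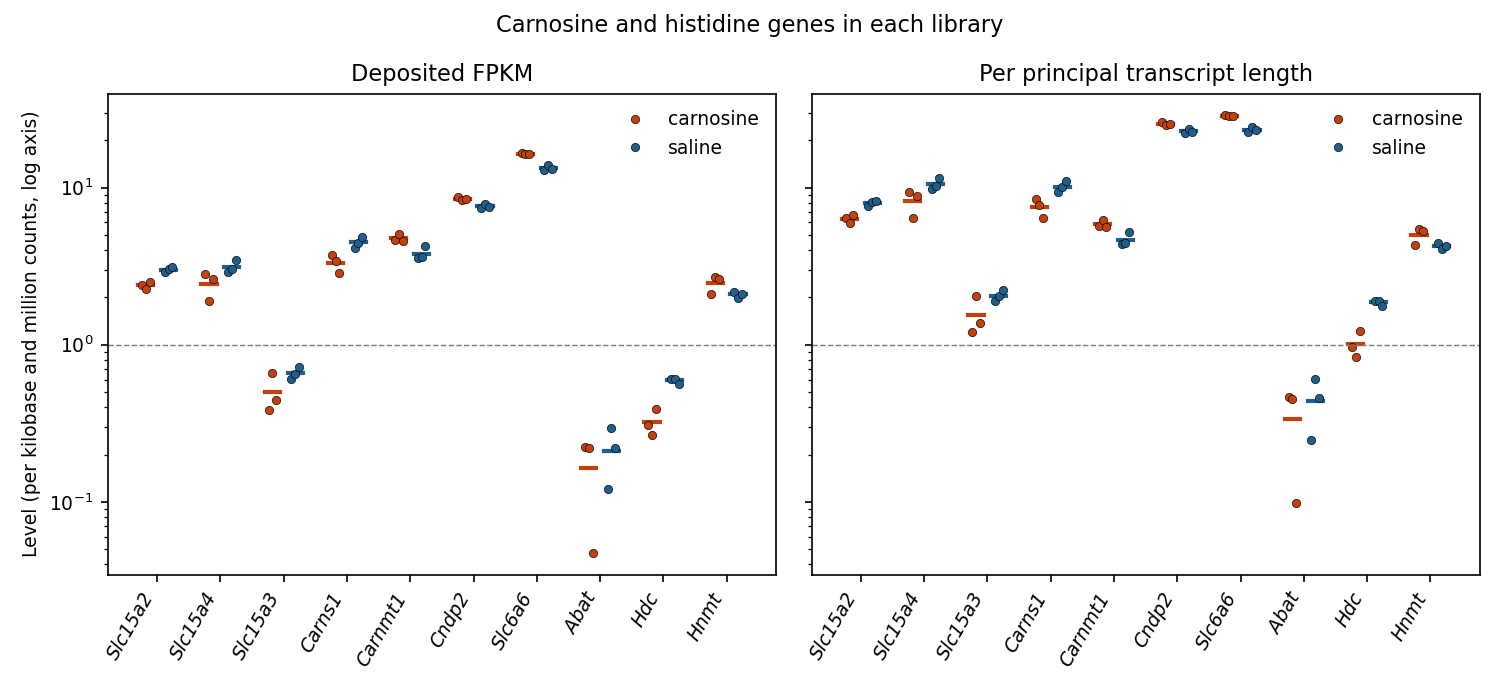
Level of each gene in every library (points) with the group mean (line), carnosine left of saline, on a log axis, as deposited FPKM in the left panel and per kilobase of the principal transcript in the right panel; the dashed line marks 1. Slc6a6 and Cndp2 are the top pair in both panels and Abat is the lowest, while Carnmt1 stands above Slc15a4 on the left and below it on the right.

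Between the groups, 5 of the 10 genes passed the test (edgeR's quasi-likelihood test, Benjamini-Hochberg adjusted p under 0.05 over all 15298 genes), against 17.9% of all genes tested. The 10 genes were chosen with earlier results of these data known, so shares among them cannot show an excess over all genes. Slc6a6 and Carnmt1 rose in the sorted cells of carnosine-treated mice, 2 of 10 against 9.51% of all genes tested. Slc15a2, Carns1 and Hdc fell, 3 of 10 against 8.39% of all genes tested. The median log2 fold change, carnosine over saline, was -0.34 over the 10 genes and 0.0009 over all genes tested. The CPM values of the groups did not overlap for 3 genes that were higher in carnosine libraries and 4 that were lower, against 19.7% and 19% of all genes tested. Only Slc6a6 was called whichever of the 6 libraries was left out: the 2 genes called higher became 1 without each carnosine library and without saline library 1 or 2. The 3 called lower became 0 without carnosine library 2 or saline library 2, and 1 without carnosine library 1, saline library 1 or saline library 3.

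**Figure D2:**
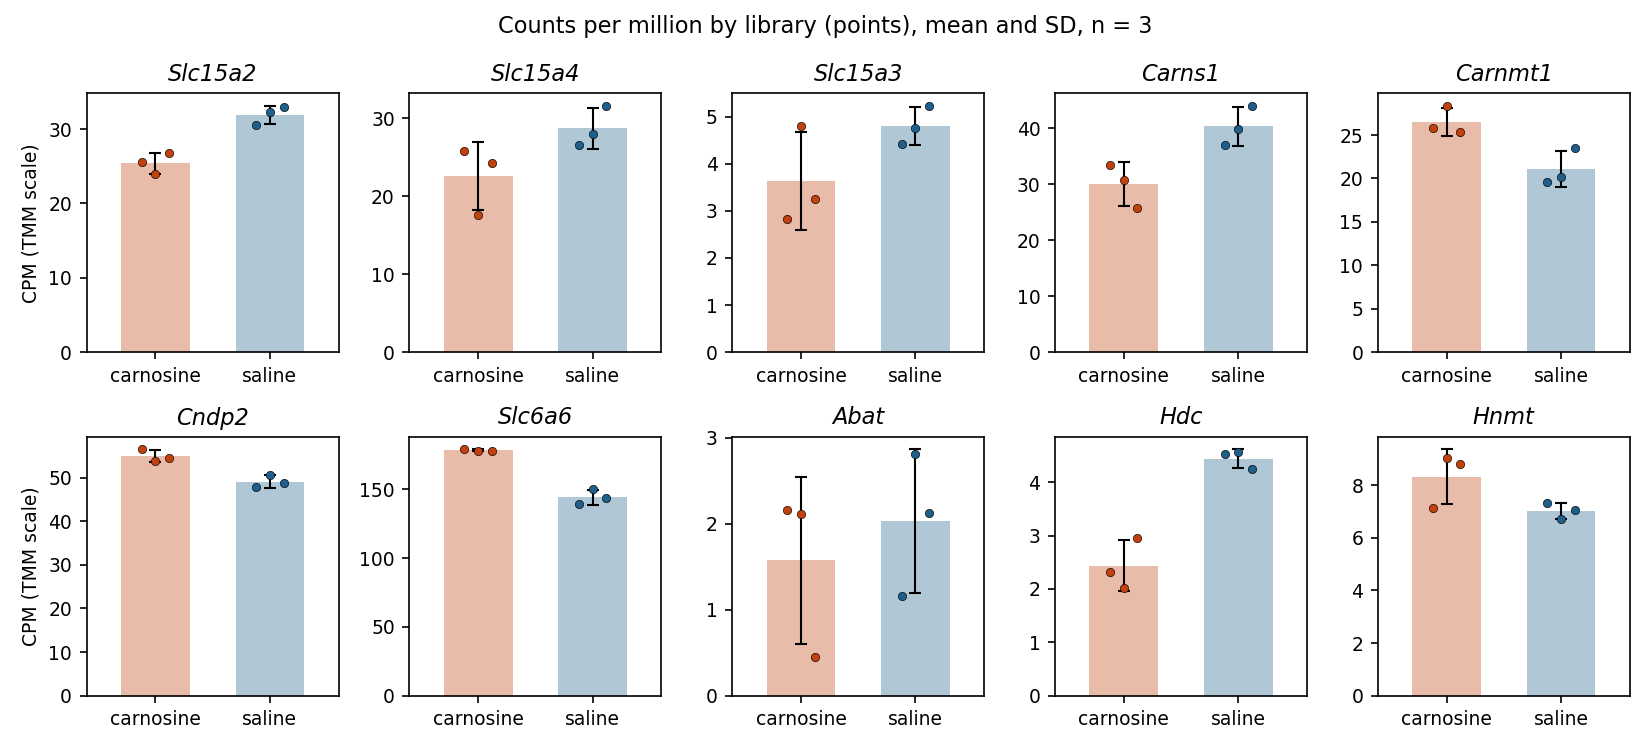
CPM of each gene on the TMM scale in the 3 carnosine libraries (left bar) and the 3 saline libraries (right bar); points are libraries, bars are means and error bars are SD. Slc6a6 and Carnmt1 stand higher in every carnosine library than in any saline library, Slc15a2, Carns1 and Hdc stand lower, Cndp2 (higher) and Slc15a4 (lower) are apart without passing the test, and Hnmt, Slc15a3 and Abat overlap.

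Promoter sequences are shown for the genes past the test that the RefSeq table of GRCm38.p6 held, namely Hdc and Slc15a2, which fell, and Carnmt1, which rose. Each line gives the 250 bases before the RefSeq start, 5′ to 3′ on the gene's strand, with matches to the motifs searched in capitals. Hdc lies at chr2:126618679-126618928 on the minus strand, Slc15a2 at chr16:36784963-36785212 on the minus strand and Carnmt1 at chr19:18670509-18670758 on the plus strand. The Hdc window falls inside the gene as GENCODE M21 annotates it (chr2:126593667-126619299), so it lies before the RefSeq start only.
Hdc: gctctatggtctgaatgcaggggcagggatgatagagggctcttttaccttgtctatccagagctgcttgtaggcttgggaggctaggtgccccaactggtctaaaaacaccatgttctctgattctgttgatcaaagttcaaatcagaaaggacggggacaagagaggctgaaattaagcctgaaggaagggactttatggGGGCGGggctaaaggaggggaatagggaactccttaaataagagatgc
Slc15a2: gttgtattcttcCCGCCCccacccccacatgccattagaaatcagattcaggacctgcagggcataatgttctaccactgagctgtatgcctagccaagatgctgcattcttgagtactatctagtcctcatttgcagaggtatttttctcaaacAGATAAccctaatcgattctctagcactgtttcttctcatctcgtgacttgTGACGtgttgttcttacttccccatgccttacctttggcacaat
Carnmt1: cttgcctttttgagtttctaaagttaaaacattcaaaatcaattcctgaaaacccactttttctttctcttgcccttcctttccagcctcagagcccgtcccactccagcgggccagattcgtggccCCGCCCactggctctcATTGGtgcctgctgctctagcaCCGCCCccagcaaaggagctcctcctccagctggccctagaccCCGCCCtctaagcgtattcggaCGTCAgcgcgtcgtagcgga

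The Carnmt1 window had 56.0% G and C and 13 CpG pairs, against 48.8% and 2 for Hdc and 45.2% and 4 for Slc15a2. The GC box GGGCGG, searched like all motifs on both strands, is present in 32.7% of the 32851 promoters of the same length in the table. Carnmt1 held 3 of them, Hdc 1 and Slc15a2 1. Slc15a2 also held the GATA motif AGATAA, found in 9.99% of promoters, between 95 and 90 bases before the start, and the cyclic AMP response motif TGACG, found in 17.8%, between 44 and 40 bases before it. Carnmt1 held TGACG on the opposite strand between 20 and 16 bases before its start and CCAAT, found in 33.8%, on the opposite strand between 107 and 103 bases before it. None of these 3 windows held the TATA box TATAAA, which 12.4% of promoters hold, the AP-1 site TGANTCA (6.75%) or the E-box CACGTG (6.02%). The interferon-stimulated response element, in 2.98% of promoters, was not matched in them either. These matches are a description of the letters and were not set against binding data.

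Uptake of whole dipeptides rests on the Slc15 family, of which 3 of 5 genes were detected. Slc15a2 (ENSMUSG00000022899; GRCm38 chr16:36750177-36784962, minus strand) encodes the high-affinity surface transporter that carries carnosine in kidney and brain, and its promoter is among those printed above. It had 25.5, 24.0 and 26.8 CPM in carnosine libraries 1 to 3, against 30.5, 32.2 and 32.9 CPM in saline libraries 1 to 3. All carnosine libraries lay below all saline libraries. Slc15a2 fell by 0.33 on the log2 scale (SE 0.07, 95% interval -0.49 to -0.16, adjusted p = 0.019). The call was lost without carnosine library 1 (adjusted p = 0.0579), carnosine library 2 (0.06), saline library 2 (0.062) or saline library 3 (0.0619), and with DESeq2 (0.0581).

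The other detected family members sit in the membrane of endosomes and lysosomes, where they carry histidine and small peptides toward the cytosol. Slc15a4 (ENSMUSG00000029416; chr5:127595664-127632897, minus strand), which is also needed for Toll-like receptor signalling from these compartments in immune cells, had 25.9, 17.6 and 24.3 CPM in carnosine libraries 1 to 3, against 26.6, 28.0 and 31.6 CPM in saline libraries 1 to 3. The groups did not overlap, and carnosine library 2 was the lowest by a wide margin. The log2 fold change was -0.34 (SE 0.14, 95% interval -0.68 to -0.0064) and did not pass the test (adjusted p = 0.146). Without carnosine library 2 it was -0.20. Slc15a3 (ENSMUSG00000024737; chr19:10839727-10859362, plus strand) had 34, 50 and 43 counts in carnosine libraries 1 to 3, against 46, 49 and 69 counts in saline libraries 1 to 3, or 2.82, 4.81 and 3.26 CPM against 4.43, 4.76 and 5.23 CPM. Carnosine library 2 lay within the saline range, and the log2 fold change of -0.42 (95% interval -0.93 to 0.08) did not pass the test (adjusted p = 0.219); it was -0.27 without carnosine library 1 and -0.66 without carnosine library 2. Slc15a3 shares 1541 exon bases with Tmem132a on the opposite strand, which had 261 counts in carnosine libraries and 308 in saline libraries against 127 in carnosine libraries and 164 in saline libraries for Slc15a3. Whether counting used strand is not given, so the level of Slc15a3 is uncertain. Markers of monocytes and macrophages, cells in which Slc15a3 is well known, summed to 172 to 185 CPM in carnosine libraries and 202 to 214 CPM in saline libraries (1 of 8 tested fell), and their part in these values was not tested.

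The intestinal transporter Slc15a1 and the orphan family member Slc15a5 had a count of 0 in all 6 libraries. Each library's limit of 3 counts is the 0.226 to 0.291 CPM given above, against 24.0 CPM or more for Slc15a2.

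For carnosine synthesis, the enzyme's transcript was lower in the sorted cells of carnosine-treated mice. Carns1 (ENSMUSG00000075289; chr19:4164324-4175479, minus strand), the ligase that joins beta-alanine to histidine, had 404, 320 and 339 counts in carnosine libraries 1 to 3, against 385, 411 and 580 counts in saline libraries 1 to 3. Scaled to library size this was 33.5, 30.8 and 25.7 CPM in carnosine libraries, against 37.0, 39.9 and 44.0 CPM in saline libraries. Every carnosine library was below every saline library, and the spread within each group was wide, at SDs of 3.96 CPM around 30.0 CPM in carnosine libraries and 3.49 CPM around 40.3 CPM in saline libraries. Carns1 fell by 0.43 on the log2 scale (SE 0.11, 95% interval -0.69 to -0.17, adjusted p = 0.0353). The call was lost without carnosine library 2 (adjusted p = 0.0797), carnosine library 3 (0.0761), saline library 1 (0.0521), saline library 2 (0.0876) or saline library 3 (0.108), and on the deposited FPKM (0.0553 with a pseudocount of 1 and 0.0561 with 0.1). Carns1 shares 1825 exon bases with the antisense gene Gm17552, which had 45 counts in carnosine libraries and 33 in saline libraries, and 1345 with the same-strand transcript AC109138.8, which was not analysed here.

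Pm20d2, which hydrolyses side products of carnosine synthase, was low, with a mean of 0.416 ± 0.102 FPKM in carnosine libraries and 0.531 ± 0.227 FPKM in saline libraries. Its log2 fold change of -0.30 did not pass the test (adjusted p = 0.636) and ranged over -0.65 without saline library 3 to -0.053 without saline library 2, so its size could not be given at this depth.

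The transcript of the methylating enzyme was higher. Carnmt1 (ENSMUSG00000024726; chr19:18670764-18707200, plus strand), the S-adenosylmethionine-dependent enzyme that makes anserine, had 312, 295 and 335 counts in carnosine libraries 1 to 3, against 204, 208 and 310 counts in saline libraries 1 to 3. This was 25.9, 28.4 and 25.4 CPM in carnosine libraries, against 19.6, 20.2 and 23.5 CPM in saline libraries. The groups did not overlap, and saline library 3 came closest to the carnosine libraries. Carnmt1 rose 1.25-fold (log2 fold change 0.33, SE 0.09, 95% interval 0.11 to 0.54, adjusted p = 0.0486). The adjusted p lay just under the threshold: of 16 alternative settings it was called in 2, without saline library 3 (0.0303) and with a filter of 1 CPM in 3 libraries (0.0485), and it reached 0.133 at most with a library left out.

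Of the carnosinase genes listed, the cytosolic one was expressed. Cndp2 (ENSMUSG00000024644; chr18:84667465-84685702, minus strand), which splits carnosine and a range of other dipeptides inside cells, had 681, 560 and 720 counts in carnosine libraries 1 to 3, against 496, 521 and 644 counts in saline libraries 1 to 3. The levels were 56.5, 53.9 and 54.6 CPM in carnosine libraries, against 47.7, 50.6 and 48.8 CPM in saline libraries. All carnosine libraries lay above all saline libraries by a small margin. The log2 fold change was 0.16 (SE 0.05, 95% interval 0.05 to 0.28) and did not pass the test (adjusted p = 0.0626), nor under any of the 16 alternatives, where adjusted p ranged over 0.0536 to 0.235. Cndp1, which encodes the carnosinase of human serum, had a count of 0 in every library.

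Slc6a6 (ENSMUSG00000030096; chr6:91684053-91759066, plus strand), a sodium- and chloride-dependent transporter, carries beta-alanine as well as taurine into cells. It had 2159, 1851 and 2343 counts in carnosine libraries 1 to 3, against 1449, 1544 and 1890 counts in saline libraries 1 to 3. The levels were 179.0, 178.0 and 177.6 CPM in carnosine libraries, against 139.4, 149.9 and 143.3 CPM in saline libraries. The carnosine libraries were nearly level with each other, at an SD of 0.733 CPM, and stood well above the saline libraries, whose SD was 5.33 CPM. Slc6a6 rose 1.24-fold (log2 fold change 0.31, SE 0.04, 95% interval 0.22 to 0.39, adjusted p = 0.00151). It was called under all 16 alternatives, with adjusted p of 0.003 to 0.00977 when a library was left out.

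Abat (ENSMUSG00000057880; chr16:8513429-8621568, plus strand), the mitochondrial transaminase that degrades GABA and beta-alanine, was the lowest of the 10 genes. It had 26, 22 and 6 counts in carnosine libraries 1 to 3, against 12, 29 and 28 counts in saline libraries 1 to 3. The groups overlapped widely. The log2 fold change was -0.40 (SE 0.54, 95% interval -1.66 to 0.85, adjusted p = 0.644) and changed sign without carnosine library 3 (0.072), so no direction could be given at this depth.

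The transcript of the histamine-making enzyme was low in both groups and fell with carnosine. Hdc (ENSMUSG00000027360; chr2:126593667-126619299, minus strand), histidine decarboxylase, had 28, 21 and 39 counts in carnosine libraries 1 to 3, against 47, 47 and 56 counts in saline libraries 1 to 3, a total of 88 in carnosine libraries and 150 in saline libraries. On the CPM scale this was 2.32, 2.02 and 2.96 CPM in carnosine libraries, against 4.52, 4.56 and 4.25 CPM in saline libraries. The highest carnosine library stayed below the lowest saline library. Hdc fell by 0.85 on the log2 scale (SE 0.18, 95% interval -1.27 to -0.43, adjusted p = 0.0178), the largest change among the 10 genes. The call was lost without carnosine library 1 (adjusted p = 0.0585), carnosine library 2 (0.055), saline library 1 (0.0538) or saline library 2 (0.0563), and with DESeq2 (0.0747). Markers of basophils and mast cells, which make histamine, were lower with it: their 9 genes summed to 17.1 to 18.2 CPM in carnosine libraries and 32.7 to 36.3 CPM in saline libraries, 3 of the 4 tested fell, and Cma1 was at 0 in all libraries. Mcpt8, a basophil protease, fell by 1.04 on the log2 scale (adjusted p = 0.00725) and Prss34, another, fell by 1.67 (adjusted p = 0.000106). Of the 10 progenitor markers, 5 also fell, among them the myeloid granule genes Mpo (306 CPM in carnosine libraries and 516 CPM in saline libraries, adjusted p = 2.96e-06), Elane (22.1 CPM in carnosine libraries and 33.9 CPM in saline libraries, adjusted p = 0.00256) and Ctsg (37.1 CPM in carnosine libraries and 54.7 CPM in saline libraries, adjusted p = 0.00374). The part of any of these cells in the level of Hdc was not tested.

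Hnmt (ENSMUSG00000026986; chr2:24002910-24049394, minus strand), which inactivates histamine inside cells by methylation, had 86, 94 and 116 counts in carnosine libraries 1 to 3, against 76, 69 and 93 counts in saline libraries 1 to 3. The levels were 7.13, 9.04 and 8.79 CPM in carnosine libraries, against 7.31, 6.70 and 7.05 CPM in saline libraries. Carnosine library 1 lay within the saline range. The log2 fold change of 0.24 (SE 0.13, 95% interval -0.06 to 0.55) did not pass the test (adjusted p = 0.242).

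**Figure D3:**
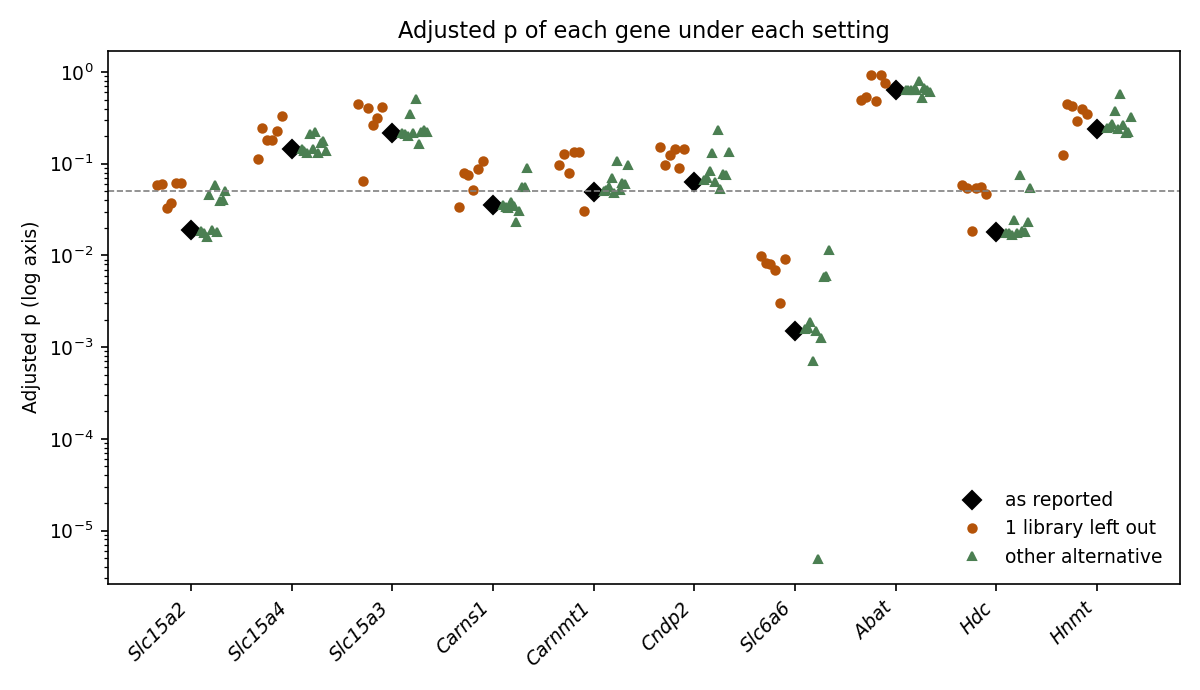
Adjusted p (log axis) of each of the 10 genes as reported (diamond), with 1 library left out (circles) and under the other alternatives (triangles); the dashed line marks 0.05. All points of Slc6a6 lie below the line and all points of Cndp2, Slc15a4, Slc15a3, Hnmt and Abat above it, while Slc15a2, Carns1, Carnmt1 and Hdc have points on both sides.

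Around these 10 genes, 42 further genes of the pathway were listed by function, and 21 had counts enough to test. Of the 21, 5 rose and 3 fell, which is 38.1% against the 17.9% of all genes tested, with a median log2 fold change of -0.02. These genes were listed with earlier results of these data known, so the shares cannot show an excess in the pathway. The number that rose was 3 without carnosine library 1, 2 without carnosine library 3 and 3 without saline library 2. The number that fell was 1 without any one of the carnosine libraries or saline library 1. A count of 0 in all libraries was found for 6 of the 42 genes (Slc15a1, Slc15a5, Cndp1, Dpys, Agxt2 and Uroc1), and 8 others had no more than 1 to 3 counts in any library.

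Histidine is taken up as a free amino acid by broader carriers, of which Slc7a5, Slc3a2 and Slc38a2 were among the most abundant transcripts of the pathway. Slc7a5, the catalytic chain of the large neutral amino acid transporter, had 34.3, 33.1 and 33.5 FPKM in carnosine libraries 1 to 3, against 25.3, 24.8 and 25.6 FPKM in saline libraries 1 to 3. It rose by 0.42 on the log2 scale (SE 0.03, adjusted p = 0.000257) and was called under all 16 alternatives. Its partner chain Slc3a2 averaged 32.2 ± 1.10 FPKM in carnosine libraries and 31.3 ± 1.09 FPKM in saline libraries and did not pass the test (log2 fold change 0.05, adjusted p = 0.448). The 2 chains were near each other only in FPKM. Per kilobase of the principal transcript, Slc3a2 stood at 117 in carnosine libraries and 114 in saline libraries. Slc7a5 stood at 41.2 in carnosine libraries and 30.9 in saline libraries on that scale.

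The cationic amino acid transporter Slc7a1 rose, with 9.68 ± 0.533 FPKM in carnosine libraries and 8.23 ± 0.361 FPKM in saline libraries (log2 fold change 0.24, SE 0.05, adjusted p = 0.0215). It was not called without carnosine library 1 (adjusted p = 0.0669), carnosine library 3 (0.0663) or saline library 2 (0.0647). Slc38a2, a sodium-coupled neutral amino acid transporter, fell by a small amount, with 50.5 ± 0.332 FPKM in carnosine libraries and 53.8 ± 0.436 FPKM in saline libraries (log2 fold change -0.09, SE 0.02, adjusted p = 0.0255). That call was lost when any 1 of the 6 libraries was left out (adjusted p of 0.0607 to 0.0824), with no filter on low counts (0.137) and with DESeq2 (0.192). Slc7a8, another partner of Slc3a2, averaged 3.21 ± 0.0685 FPKM in carnosine libraries and 3.33 ± 0.356 FPKM in saline libraries (adjusted p = 0.772). The histidine and glutamine carrier Slc38a5 averaged 0.956 ± 0.414 FPKM in carnosine libraries and 0.609 ± 0.191 FPKM in saline libraries (adjusted p = 0.295), and its relative Slc38a3 had at most 2 counts in a library.

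Besides Slc6a6, few listed genes that supply or carry beta-alanine and taurine were expressed. Of 10 listed, 4 were tested and 0 passed edgeR's test, 1 having an unadjusted p under 0.05, and 0 passed with DESeq2 or limma-voom. The pyrimidine route to beta-alanine was close to undetected, since Dpys was at 0 and Dpyd and Upb1 had at most 8 and 9 counts in a library. Gadl1, which makes beta-alanine from aspartate, averaged 0.926 ± 0.0838 FPKM in carnosine libraries and 0.793 ± 0.0382 FPKM in saline libraries (adjusted p = 0.36). Csad, an enzyme of taurine synthesis, averaged 5.33 ± 0.597 FPKM in carnosine libraries and 5.90 ± 0.490 FPKM in saline libraries (adjusted p = 0.343). Both levels are uncertain without the strand setting, since Gadl1 shares 162 exon bases with the opposite-strand pseudogene Gm9385, which had 9507 counts over the 6 libraries against 264 for Gadl1, and Csad shares 278 with Zfp740, which had 6330 counts against 3130 for Csad. Cdo1 and Ado, listed with Csad under taurine synthesis, had at most 11 and 5 counts in a library and were not tested. Slc6a13, a carrier of taurine and GABA, averaged 1.32 ± 0.355 FPKM in carnosine libraries and 1.10 ± 0.0481 FPKM in saline libraries (adjusted p = 0.442).

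Slc36a1, a proton-coupled carrier of small amino acids that also takes beta-alanine, had 170, 125 and 179 counts in carnosine libraries 1 to 3, against 476, 483 and 176 counts in saline libraries 1 to 3. Saline library 3 stood with the carnosine libraries and apart from the other saline libraries. The log2 fold change was -1.40 and did not pass the test (adjusted p = 0.0619). Without saline library 3 it was -1.80 and passed (adjusted p = 0.000127), and it also passed with no filter on low counts (0.0395).

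Downstream of Abat, the semialdehyde dehydrogenase Aldh5a1, which oxidises the product of GABA, averaged 2.06 ± 0.0578 FPKM in carnosine libraries and 1.59 ± 0.0577 FPKM in saline libraries. It rose by 0.38 on the log2 scale (SE 0.09, adjusted p = 0.0283), and the call was lost when any 1 library was left out (adjusted p of 0.058 to 0.0879), with no filter (0.0624) and with DESeq2 (0.187). Aldh6a1, which oxidises the product of beta-alanine, averaged 4.70 ± 0.367 FPKM in carnosine libraries and 4.73 ± 0.539 FPKM in saline libraries, with no direction that held (adjusted p = 0.979), and it shares 1078 exon bases with Bbof1 on the opposite strand. The GABA-making enzymes Gad1 and Gad2 had at most 1 and 3 counts in a library.

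Histidine catabolism was close to undetected. Hal, the first enzyme of the route to glutamate, and Ftcd had at most 2 counts in a library, and Uroc1 was at 0. Amdhd1, which acts between Uroc1 and Ftcd, ranged over 3 to 16 counts in a library and did not pass the test (log2 fold change -0.87, adjusted p = 0.385). The value ranged over -1.76 without carnosine library 1 to -0.50 without saline library 1.

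Both enzymes that charge histidine onto its transfer RNA were expressed. Hars, the cytosolic histidyl-tRNA synthetase, rose, with 25.2 ± 0.853 FPKM in carnosine libraries and 21.3 ± 0.965 FPKM in saline libraries (log2 fold change 0.25, SE 0.05, adjusted p = 0.0147), and it was not called without carnosine library 3 (0.0501). Hars2, the mitochondrial one, fell, with 5.84 ± 0.241 FPKM in carnosine libraries and 6.95 ± 0.319 FPKM in saline libraries (log2 fold change -0.25, SE 0.06, adjusted p = 0.0324). That call stayed only when saline library 2 was the one left out (adjusted p = 0.049) and was lost without carnosine library 1 (0.0934), carnosine library 2 (0.0613), carnosine library 3 (0.0726), saline library 1 (0.0886) or saline library 3 (0.104), with no filter (0.0897) and with DESeq2 (0.106). The genes lie head to head and share 195 exon bases on opposite strands, so counting without regard to strand could move reads between them.

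Of the 3 histamine transporters listed, Slc18a2 and Slc22a3 stood well above Hdc in FPKM, and Slc29a4, at 0.188 FPKM in carnosine libraries and 0.164 FPKM in saline libraries, stood below it. Slc18a2, the vesicular monoamine transporter that loads histamine into granules, had 8.17, 7.70 and 7.86 FPKM in carnosine libraries 1 to 3, against 9.57, 9.34 and 9.87 FPKM in saline libraries 1 to 3. It fell by 0.27 on the log2 scale (SE 0.05, adjusted p = 0.00902) and was called under all 16 alternatives. The summed basophil and mast cell markers given with Hdc were also lower in carnosine libraries, and their part was not tested here either. Slc22a3, an organic cation transporter that carries histamine across the surface, averaged 17.3 ± 0.279 FPKM in carnosine libraries and 17.7 ± 0.624 FPKM in saline libraries (log2 fold change -0.02, adjusted p = 0.737).

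Maoa, the mitochondrial oxidase of monoamines, had 5.43, 5.38 and 5.61 FPKM in carnosine libraries 1 to 3, against 3.97, 3.73 and 3.76 FPKM in saline libraries 1 to 3. The groups were well apart. Maoa rose by 0.53 on the log2 scale (SE 0.07, adjusted p = 0.00258) and was called under all 16 alternatives, whereas its paralogue Maob had at most 1 count in a library. Aoc1, the diamine oxidase that degrades histamine outside cells, was low, with 0.206 ± 0.103 FPKM in carnosine libraries and 0.290 ± 0.0803 FPKM in saline libraries (adjusted p = 0.391).

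Of the 4 histamine receptors only Hrh2 was tested, since the others had at most 4 counts in a library. Hrh2, which signals through cyclic AMP, had 1.41, 1.42 and 1.60 FPKM in carnosine libraries 1 to 3, against 1.90, 1.77 and 1.82 FPKM in saline libraries 1 to 3. The carnosine libraries were all below the saline libraries. The log2 fold change was -0.30 (SE 0.09) and did not pass the test (adjusted p = 0.0708).

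**Figure D4:**
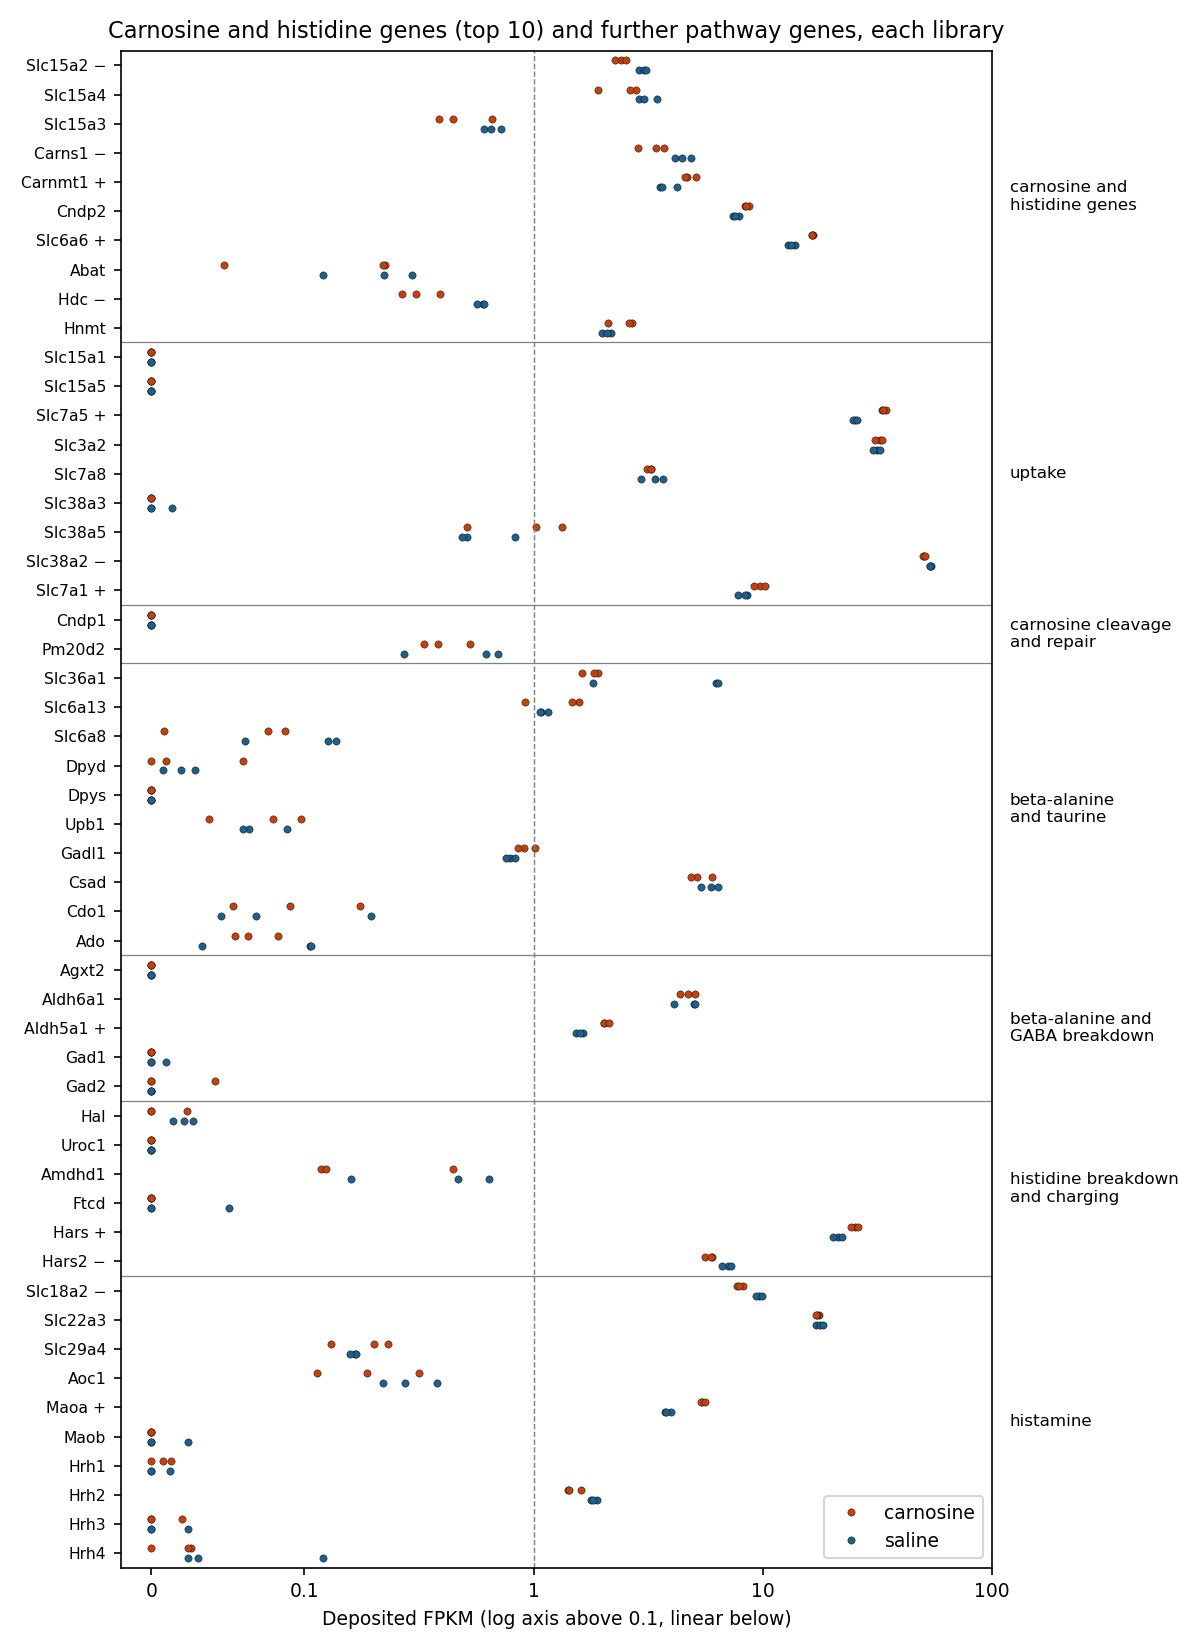
Deposited FPKM of the 10 genes and of the 42 further pathway genes in every library, carnosine points above saline points, on an axis that is logarithmic above 0.1 and linear below; plus and minus signs mark genes that passed the test higher or lower in carnosine libraries, and the dashed line marks 1 FPKM. Carriers of free amino acids such as Slc38a2 and Slc7a5 lie far to the right, and histidine catabolism, the pyrimidine route and most histamine receptors lie near 0.

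**Figure D5:**
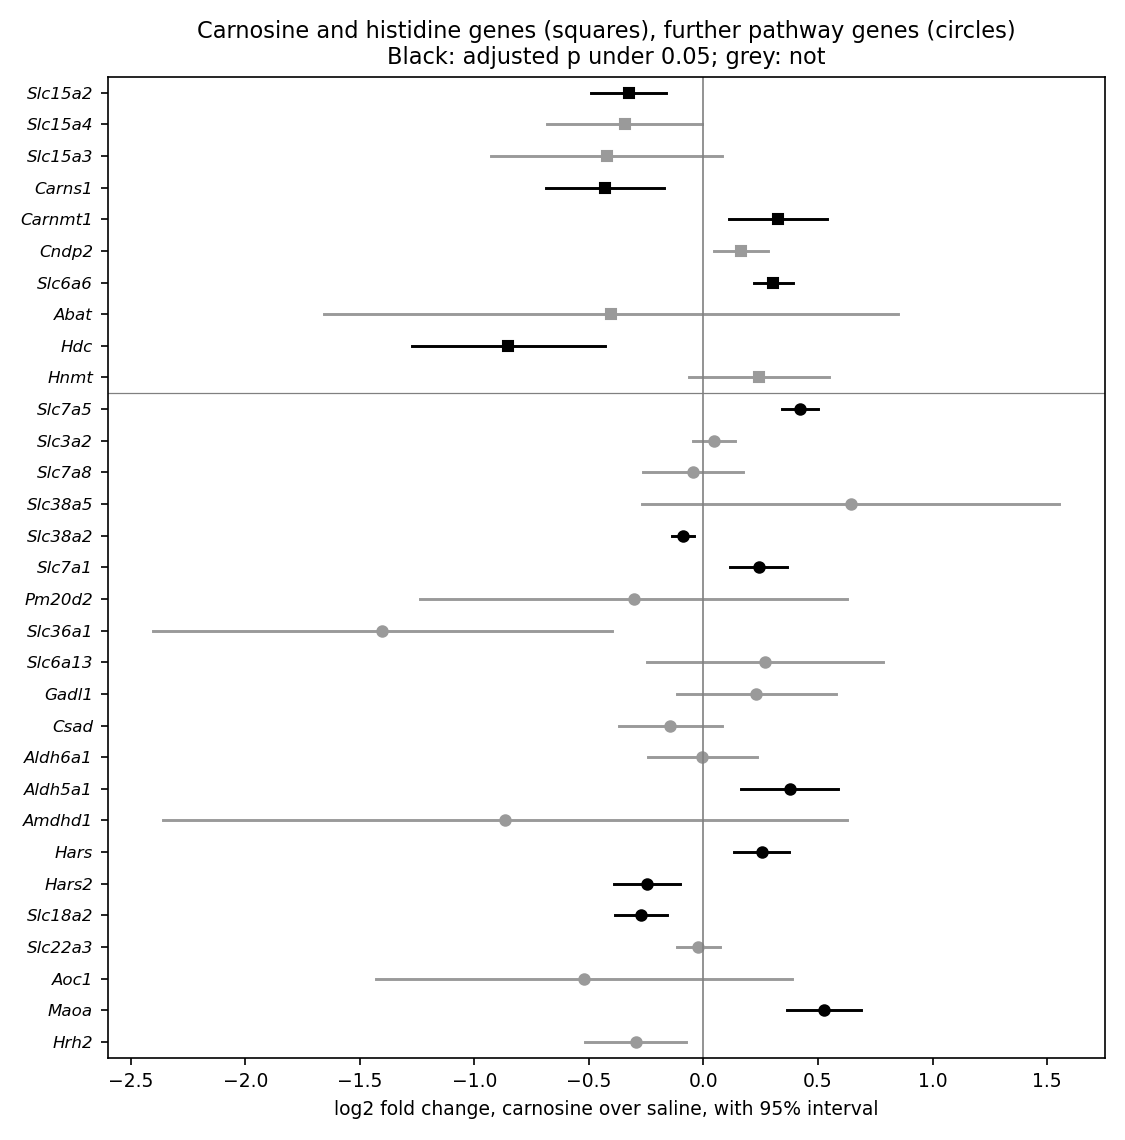
Log2 fold change, carnosine over saline, with its 95% interval for the 10 genes (squares) and the 21 tested pathway genes (circles); black marks an adjusted p under 0.05. Slc6a6, Slc7a5 and Maoa have narrow intervals above 0, Hdc lies farthest below 0 among the 10 genes, and Abat, Amdhd1 and Slc36a1 have wide intervals.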

How the data were processed

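Per the labels' protocols, poly-A RNA of sorted LT-HSCs was made into stranded paired-end libraries, 3 carnosine and 3 saline. Tools named in the submitters' processing notes are CASAVA 1.8, HISAT2, StringTie and edgeR, and the build is GRCm38. How reads were assigned to genes, with which strand setting and annotation release, is not given in the sources used here. The table deposited by the authors holds, per the file headers, a raw count and an FPKM value for each gene and library. Counts were used as deposited, FPKM only for levels. Counts were filtered with filterByExpr (15298 genes kept), scaled by TMM (factors 0.998 to 1.003) and tested with edgeR 4.0.16 in R 4.3.3 (quasi-likelihood F test, two-sided, group as the only term, Benjamini-Hochberg adjustment, threshold 0.05). CPM are on the TMM scale over the genes kept. No libraries held identical values. Annotation was GENCODE M21, which held 55141 of the 55487 identifiers. RefSeq promoter sequences (GRCm38.p6) matched 5 of the 10 genes by symbol. The genes and lists were chosen with earlier results of these data known: all 10 genes are named, and of the pathway lists every gene past the threshold, every gene at 0 in all libraries and others that fill a step. Adjusted p-values in the text are from edgeR unless another tool is named. The test was also run on counts simulated from the means and spreads fitted to these data. That check assumes the fitted model and cannot show whether the libraries came from different mice. Alternatives were other scalings and filters, DESeq2 1.42.0, limma 3.58.1 (voom, and trend on log2 FPKM with pseudocounts of 1 and 0.1), a replicate block, a threshold of 0.01 and leaving out each library.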

Additional observations from a re-analysis of the deposited data

How the results depend on the processing

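Over all genes, the 1455 called higher became 946 with a replicate block, 603 at a threshold of 0.01 and 932 to 1009 with a library left out. The 1283 called lower became 813 with DESeq2, 810 with the block, 504 at 0.01 and 801 to 883 with a library left out. Of the 10 genes, the 2 called higher became 1 with RLE factors, library totals only, upper-quartile factors, no filter, DESeq2, limma-voom, both FPKM tests, the block and 0.01, and 1 to 2 with a library left out. The 3 called lower became 1 with DESeq2, 1 with the block, 0 at 0.01 and 0 to 2 with a library left out. Of the pathway genes, the 5 called higher became 3 with the block, 2 at 0.01 and 2 to 4 with a library left out; the 3 called lower became 1 with DESeq2, the block and 0.01, and 1 to 2 with a library left out. The cause of these changes was not tested. Leaving out a library also lowers the number of libraries, and a threshold of 0.01 can only lower a count.

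The labels do not say whether same-numbered carnosine and saline libraries are pairs. Their deviations from the group means correlated at -0.05, -0.06 and 0.02. With means taken over 3 libraries, these values cannot decide whether the samples were paired. With the replicate block, Carns1 (adjusted p = 0.0889), Carnmt1 (0.0958), Hdc (0.0547), Slc38a2 (0.0769), Aldh5a1 (0.0766), Hars (0.0534) and Hars2 (0.0751) lost their calls, Slc15a2 stayed at 0.0499, and the block changed no other call among the 10 genes and the 21 tested pathway genes.

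Directions changed only where differences were near 0 or counts low: with a library left out, the log2 fold change ranged over -0.732 to 0.072 for Abat (above 0 without carnosine library 3), -0.129 to 0.025 for Slc7a8 (without saline library 1), -0.047 to 0.0051 for Slc22a3 (without saline library 3) and -0.095 to 0.051 for Aldh6a1 (without carnosine library 2, saline library 2 or saline library 3), and it was 0.0088 with no filter and 6e-04 with DESeq2 for Aldh6a1. Of the alternative values of the 10 genes, 126 kept direction and side of the threshold and 33 lost the call. The number of genes at 1 FPKM or more in every library was 7 in every set of libraries and 8 per principal transcript, an alternative chosen after seeing the data. With a minimum of 0.5 FPKM the same 7 genes passed. With a minimum of 0.1 FPKM or of 1 CPM in every library, Slc15a3 and Hdc passed as well, and Abat did not. Depth limits Abat, Hdc and Slc15a3, each under 70 counts in every library.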
